A study of Mus musculus with 46 samples.

Results

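The unstimulated cells of the experiment labelled Ics (4 libraries, at 0 h) were compared with 10 neutrophil-class libraries from the same series, both of which carry neutrophil markers. The 4 Ics libraries were taken by their labels. The 10 others were chosen by their own counts, from the 34 libraries labelled blood, neutrophil, monocyte or skin. A library was kept where 4 haemoglobin genes (Hba-a1, Hba-a2, Hbb-bs and Hbb-bt) held at most 10% of its counts, where the skin keratin genes Krt5 and Krt14 summed to at most 100 read counts scaled to the library total (CPM), and where the neutrophil genes S100a8 and S100a9 summed to over 10000 CPM. The 14 libraries are part of the 46 of the whole series. Because S100a8, S100a9, the haemoglobin genes and the keratin genes selected the libraries, their levels are given as a description and no test was made on them.

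The series measured bulk mRNA in a mouse model of a mucosal blistering disease, anti-laminin 332 pemphigoid, in which autoantibodies bind the epithelial basement membrane, in animals given intravenous immunoglobulin (IVIG) or phosphate-buffered saline (PBS). Of the 10 class libraries, 8 carry the tissue label Neutrophil, of which 4 are labelled IVIG and 4 PBS. The other 2 are labelled Blood with PBS and Monocyte with PBS, so that 4 libraries are labelled IVIG and 6 PBS in all. The labels state that the neutrophils and monocytes came from bone marrow, and 6 of the 10 titles belong to series S3, 3 to S5 and 1 to S2. The 4 Ics libraries are titled unstimulated and numbered m1 to m4. Their labels do not expand Ics, name the cells or say what was done before 0 h. A treatment field exists too, but it contradicts the condition field in many libraries, gives IVIG for all 4 unstimulated Ics libraries, and was not used. In series S3 some title numbers carry ivig for the neutrophils but not for the blood, or the reverse. The IVIG and PBS labels of the class are therefore uncertain. No strain, age or genotype is given for any group. The source, the experiment and any batch change together between the groups and cannot be told apart. P-values measure the spread between these libraries, since the labels do not say whether all came from separate animals.

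Neutrophils are made in the bone marrow in an ordered programme. Promyelocytes make the primary (azurophilic) granule proteins such as myeloperoxidase, myelocytes then make the secondary (specific) granule proteins such as lactoferrin while they stop dividing, and later stages make tertiary (gelatinase) granules and the surface receptors that the released cell uses. Mature neutrophils hold little RNA and respond within minutes to handling, adhesion or immune complexes by transcribing immediate early and cytokine genes. Maturity, purity and baseline activation were therefore examined through different gene lists. Some lists share genes, and in libraries of mixed cells they are not independent of one another. In bulk RNA, fewer cells of a type and less RNA per cell cannot be told apart.

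The class carried S100a8 and S100a9 by the rule that chose it, while the Ics libraries were taken by labels that name no cells. S100a8 stood at 15945, 13346, 10938 and 13404 CPM in Ics replicates 1 to 4, and at 8778 to 24986 CPM in the class (median 11914). S100a9, the partner of S100a8 in calprotectin, stood at 33501, 28782, 33645 and 29611 CPM against 23765 to 46227 (median 27464). The groups overlapped in both. The lowest sum of these genes inside the class was 33729 CPM and the highest among the libraries left out on this mark alone was 8070 CPM, in a monocyte library with 22.7 CPM of Ly6g. The highest haemoglobin share inside the class was 0.0775%, against 89.2% for the lowest library above that limit. Ly6g (chromosome 15, 75155240 to 75159126 in GRCm38), the surface antigen used to sort mouse neutrophils, was present in every library, at 379, 369, 355 and 353 CPM in Ics and at 401 to 823 CPM in the class (median 498). No value overlapped, and the log2 difference (Ics minus class, here and throughout) was -0.59 ± 0.21 (SE, n = 4 and 10, adjusted p = 0.0194 in edgeR). With transcript length and GC content fitted, as described below, it was 0.37 (adjusted p = 0.115 in edgeR), on the other side of 0. The transcript of Ly6g has 941 bases, and the median of that fit over transcripts of up to 984 bases was 0.47.

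Totals of the 14 libraries ran from 19784909 to 39014292 estimated counts. No pair of libraries within a group was identical, and each pair differed beyond counting noise. The Ics libraries were close to one another, with a Spearman correlation of 0.990 to 0.992 over 10397 genes, and the median standard deviation of a gene was 0.130 on the log2 scale in Ics against 0.281 in the class. Within the class 3 libraries stood nearer to Ics than the rest: Neutrophil PBS replicate 2 at 0.889, Neutrophil IVIG replicate 1 at 0.881 and Neutrophil IVIG replicate 2 at 0.865, against 0.730 to 0.800 for the other 7. These 3 carry the tissue label Neutrophil and come from different title series. Results were therefore also computed without them.

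Most genes differed. Of 14975 genes tested, 5201 were higher in Ics (34.7%) and 5877 lower (39.2%), and at 2-fold or more 3318 were higher (22.2%) and 4099 lower (27.4%). The median log2 difference was -0.06. In 8135 of the 14975 genes the groups did not overlap, so a lack of overlap was common and does not by itself mark out a gene. These shares are the background against which each gene group has to be read. Without the 3 nearer libraries 5701 genes were higher and 6014 lower.

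The difference followed transcript length, as the plot by length shows. Among 10 bins of transcript length with 1471 to 1475 genes each, the median log2 difference was -0.82 for transcripts of 985 to 1590 bases and rose through every longer bin to 0.66 for those of 6478 bases or more; the shortest bin, up to 984 bases, was at -0.23. The part of length, of RNA quality or of library preparation in any one gene's difference was not tested directly. All values were computed a second time with offsets per library for transcript length and GC content, which 14733 genes allowed. That fit called 5710 genes higher and 4985 lower, and its median over all genes was 0.10, with a median shift of 0.17 per gene. It did not level short transcripts: its median was 0.47 up to 984 bases and 0.23 from 985 to 1590 bases. Values of short genes with offsets have to be read against these medians. Its values are given for each list median and each gene named with a log2 difference, where they end a call, turn a direction or move the value by more than 1.5 times.

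**Figure D1:**
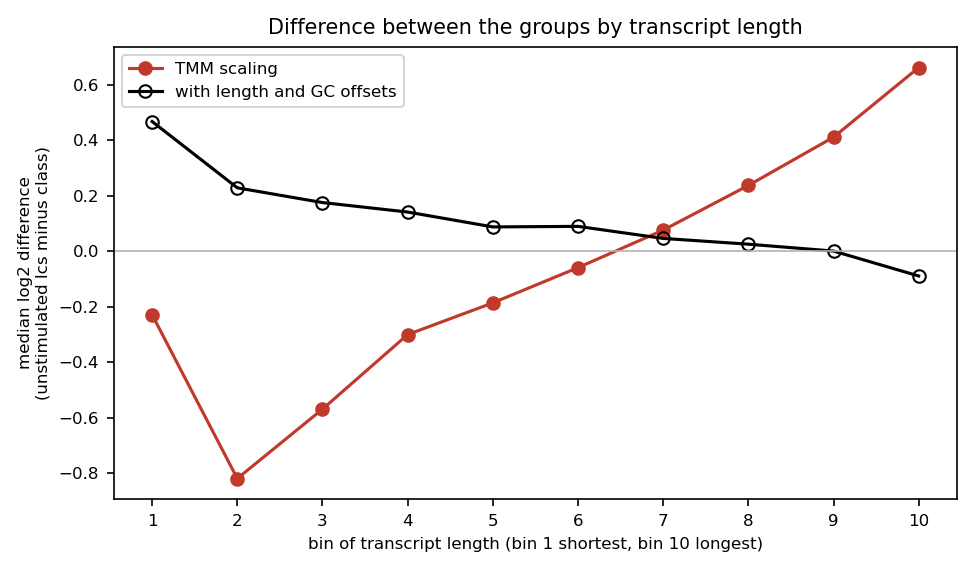
Median log2 difference (vertical axis, unstimulated Ics minus neutrophil class) over the genes of each of 10 bins of transcript length (horizontal axis). Filled points (TMM scaling) rise from -0.82 in bin 2 to 0.66 in bin 10, while open points (with length and GC offsets) fall from 0.47 in bin 1 to -0.09 in bin 10.

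Maturity was examined first through the granules in the order in which they are made. All 8 primary granule genes tested were lower in Ics, each at least 2-fold (median log2 difference -2.16, against -0.06 for all genes). Mpo (chromosome 11, 87793581 to 87804413), myeloperoxidase, stood at 149, 96.9, 66.3 and 82.6 CPM in Ics replicates 1 to 4 and at 101 to 764 CPM in the class (median 505). The groups overlapped by Ics replicate 1 and the lowest class library only, and the log2 difference was -2.26 ± 0.45 (SE, adjusted p = 2.66e-04 in edgeR). Prtn3 (chromosome 10, 79874476 to 79883174), proteinase 3, stood at 75.7, 47.8, 31.4 and 40.7 CPM against 133 to 831 (median 467), with no overlap and a log2 difference of -3.32 ± 0.48 (adjusted p = 1.09e-05).

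Ctsc, cathepsin C, which cuts the granule serine proteases into their active form, stood at 7.17 to 8.92 CPM in Ics and 45.9 to 154 CPM in the class, a log2 difference of -3.65 ± 0.29. Prss57, a serine protease of the same granules, differed by -1.67 ± 0.24, and Ctsg, cathepsin G, by -2.07 ± 0.35. Elane, neutrophil elastase, differed by -1.63 ± 0.34 (adjusted p = 3.88e-04). With length and GC offsets Elane was at -0.32 and did not pass (adjusted p = 0.306), Ctsg was at -0.96, Mpo at -1.66 and Prtn3 at -1.84. Under those offsets 7 of the 8 genes were still lower, with a median of -1.43. The 3 class libraries nearest to Ics had less Mpo RNA than the other 7, at 101 to 266 CPM against 343 to 764 CPM. Elane, Ctsg and Prss57 divided the class in the same way. Prtn3 (133 to 319 against 265 to 831 CPM) and Ctsc (45.9 to 92.4 against 70.4 to 154 CPM) overlapped between these parts of the class.

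The secondary granule genes divided. Of 12 tested, 3 were higher and 6 lower, with a median of -0.28. Ltf (chromosome 9, 111019271 to 111042767), lactoferrin, which binds iron, stood at 10052, 10508, 10498 and 9804 CPM in Ics and at 15261 to 25487 CPM in the class (median 19262). The groups did not overlap, and the difference was -0.96 ± 0.18 (adjusted p = 1.71e-04). Camp, the precursor of the antimicrobial peptide cathelicidin, stood at 6317, 5904, 5209 and 5413 CPM against 9153 to 16154 (median 12894), a difference of -1.19 ± 0.17. Ngp, neutrophilic granule protein, stood at 19571 to 20069 CPM against 17628 to 28134, and Lcn2, the siderophore-binding lipocalin 2, at 4902 to 5427 CPM against 3722 to 6291. Neither passed the test, at -0.19 ± 0.19 and 0.12 ± 0.19.

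The members that were higher, at least 2-fold each, were Abca13, a large lipid transporter, at 185 to 195 CPM against 11.5 to 40.3 (log2 difference 2.96 ± 0.29), Olfm4, olfactomedin 4, which marks a subset of mouse neutrophils, at 227 to 283 CPM against 18.4 to 106 (2.20 ± 0.37), and Itgb2l, an integrin beta chain (1.23 ± 0.30). The direction of this granule turned under the offsets for length and GC content. With them 7 genes were higher and 1 lower, and the median was 0.75. The list has a median length of 1456.5 bases, and the offset median over all transcripts of 985 to 1590 bases was 0.23. Camp was then at -0.13 (adjusted p = 0.509), Ngp at 0.78 (adjusted p = 0.00344) and Lcn2 at 1.18 (adjusted p = 1.96e-04), while Ltf remained lower at -0.57 and Abca13 was at 1.82. Without the 3 nearer class libraries Ngp was at 0.034 and Lcn2 at 0.37 (adjusted p = 0.00407).

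Genes listed as tertiary granule were higher in Ics for 5 of 6 tested, with none lower (median 1.17, and 1.76 with offsets). The list includes Mmp8, whose protein is also assigned to secondary granules, so this gene does not tell those granules apart. Mmp8 (chromosome 9, 7558456 to 7568485), neutrophil collagenase, stood at 5622, 5303, 5638 and 5482 CPM in Ics and at 892 to 2917 CPM in the class (median 1360). Every Ics library was above every class library, at a log2 difference of 1.74 ± 0.32 (adjusted p = 1.13e-04). Mmp25, a membrane-bound metalloproteinase of neutrophils, stood at 519 to 582 CPM against 47.6 to 182 (2.41 ± 0.33). Slc11a1, the Nramp1 metal transporter, differed by 1.51 ± 0.24, and Mmp9, gelatinase B, by 0.58 ± 0.25 (adjusted p = 0.0448). Mmp9 was at 0.94 with offsets and at 0.90 without the 3 nearer libraries. Its call was lost when any 1 of 10 libraries was left out, each Ics library among them (adjusted p = 0.0529 to 0.0961).

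Of 24 tested genes of mature neutrophils 9 were higher in Ics, a share near that of all genes, 3 were lower and 12 did not pass (median 0.26). With offsets (median 0.71), or without the 3 nearer libraries (median 0.62), 15 were higher and 3 lower. Csf3r (chromosome 4, 126024550 to 126044440), the receptor of granulocyte colony-stimulating factor, stood at 4235, 4265, 4315 and 4641 CPM in Ics and at 742 to 1957 CPM in the class (median 1066), with no overlap and a log2 difference of 1.82 ± 0.27 (adjusted p = 1.55e-05). Cxcr2, the chemokine receptor that draws neutrophils out of the marrow, stood at 932 to 1137 CPM against 209 to 690 (1.43 ± 0.31).

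Il1r2, the decoy receptor of interleukin 1, differed by 1.45 ± 0.21, and by 2.29 with offsets. The 3 lower genes of this list were G0s2, an inhibitor of lipolysis, at -1.97 ± 0.20, Slpi, a protease inhibitor, at -0.71, and Msrb1, a methionine sulfoxide reductase, at -0.44; Slpi and Msrb1 were named after their values were seen. With offsets G0s2 was at -0.72, while Slpi turned to 0.47 (adjusted p = 0.0762) and Msrb1 to 0.71 (adjusted p = 0.00323). Genes that hold neutrophils in the marrow or release them were higher for 6 of 8 and lower for 2 (median 1.04). Cxcr4, the receptor that retains neutrophils in the marrow, stood at 1036, 1307, 1347 and 1270 CPM in Ics against 452 to 860 CPM (median 555), a difference of 1.08 ± 0.16. It was thus higher in the same libraries as Cxcr2, which acts in the opposite sense. Among 12 genes of neutrophil identity, several of which are shared with these lists, 7 were higher and 1, Ly6g, lower (median 0.92).

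The transcription factors of the granulocyte line were mostly lower, with 1 higher and 7 lower of 11 tested (median -0.52, and -0.33 with offsets). Cebpa, needed for the step into the granulocyte line, stood at 27.0 to 34.3 CPM in Ics against 59.3 to 135 (log2 difference -1.77 ± 0.17, and -0.89 with offsets). Irf8 (chromosome 8, 120736358 to 120756694), which directs progenitors to monocytes and dendritic cells, stood at 0.722 to 2.32 CPM against 52.4 to 159 (-6.19 ± 0.34). Monocyte markers were lower as well (Ccr2 by -5.60 and Fn1 by -5.88, given in full below), and their part in the Irf8 difference was not tested. The factor that was higher was Klf5, at 20.1 to 22.5 CPM against 2.65 to 5.37 (2.40 ± 0.15). Cebpe, which drives secondary granule genes, differed by -0.52 ± 0.10 and turned to 0.85 with offsets (adjusted p = 1.86e-04), so its direction is uncertain.

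Cell division genes were lower without exception among the 28 tested, 25 of them at least 2-fold (median -1.76, and -1.64 with offsets). Mki67 (chromosome 7, 135689784 to 135716361), the antigen Ki-67 of cycling cells, stood at 441, 382, 368 and 407 CPM in Ics and at 437 to 929 CPM in the class (median 690), overlapping at one end (-0.78 ± 0.14, and -1.69 with offsets). Top2a, topoisomerase II alpha, stood at 112, 87.1, 82.0 and 103 CPM against 214 to 482 (median 362), with no overlap and a difference of -1.88 ± 0.17. Birc5, survivin, stood at 31.4, 22.6, 23.4 and 23.2 CPM against 105 to 262 (-2.94 ± 0.22), and Ube2c, a ubiquitin-conjugating enzyme of mitosis, differed by -2.64 ± 0.19. Within the class Birc5 was lowest in the 3 libraries nearest to Ics, at 105 to 142 CPM against 190 to 262 CPM in the other 7. The summed level of the 28 genes still stood at 1097 to 1425 CPM in Ics, against 2092 to 4964 CPM in the class.

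**Figure D2:**
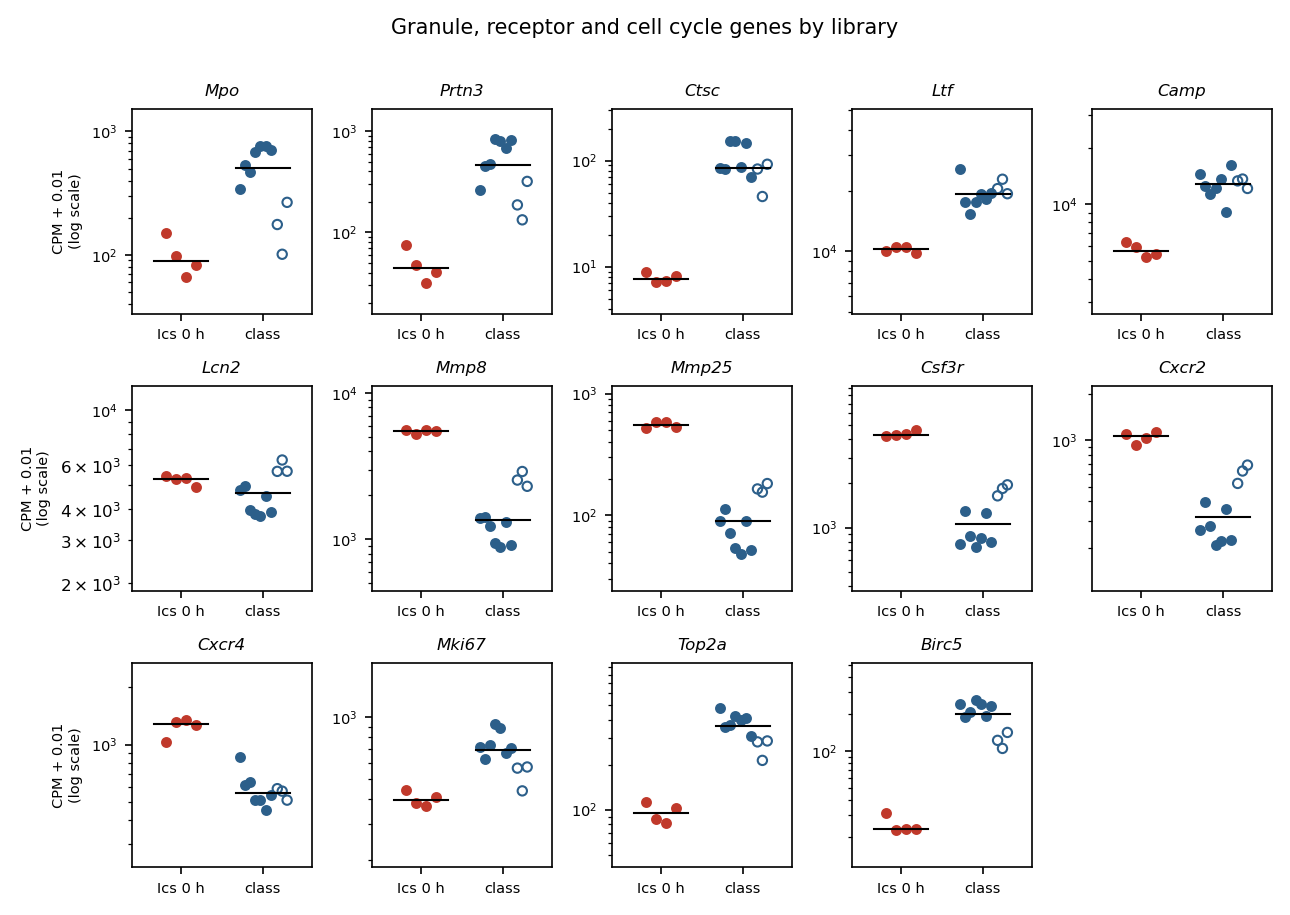
Level of 14 granule, receptor and cell cycle genes in each library (vertical axes, CPM plus 0.01 on a log scale; black lines are group medians). Red points are the 4 Ics libraries at 0 h, blue points the class, with open circles for the 3 class libraries nearest to Ics; Mmp8 is at 5303 to 5638 CPM in Ics and 892 to 2917 in the class, and Birc5 at 22.6 to 31.4 against 105 to 262.

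Purity was examined through markers of the other cells that marrow or blood can hold. Genes of monocytes and macrophages were lower in Ics for 11 of 16 tested and higher for none (median -3.16). Without the 3 nearer class libraries 11 of 15 were lower and the median was -5.65. Ccr2 (chromosome 9, 124101950 to 124113557), the chemokine receptor of classical monocytes, stood at 7.23, 4.77, 6.73 and 5.45 CPM in Ics and at 166 to 437 CPM in the class (median 274). Every class library lay above every Ics library, and the log2 difference was -5.60 ± 0.26 (adjusted p = 3.06e-10). Fn1 (chromosome 1, 71585520 to 71653200), fibronectin, stood at 16.4, 7.36, 11.4 and 7.94 CPM against 421 to 947 (median 572), a difference of -5.88 ± 0.31. Ms4a6c, a membrane protein of monocytes, differed by -5.84 ± 0.26, and Klf4 (chromosome 4, 55527143 to 55532466), a monocyte factor that also belongs to the immediate early genes, by -6.85 ± 0.36.

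For scale, 8 libraries of the series carry none of the 3 marks, and in these Ccr2 stood at 72.9 to 1243 CPM (median 706) and Fn1 at 104 to 3240 CPM (median 1287). For both genes the class libraries lay within the range of those libraries and the Ics libraries below it. The summed level of the 16 genes was 826 to 929 CPM in Ics and 2240 to 4414 CPM in the class. The largest part of the Ics sum was Ly6c2, a surface antigen of monocytes that granulocytes also carry, named after its values were seen, at 579 to 677 CPM in Ics against 853 to 1288 (-0.74 ± 0.13, and -0.48 with offsets). Csf1r, the receptor of macrophage colony-stimulating factor, which is also transcribed in granulocytes, made up a further part at 139 to 178 CPM against 155 to 283 (-0.50 ± 0.12). The 3 libraries nearest to Ics carried monocyte markers too, with 166 to 286 CPM of Ccr2. Monocytes also transcribe genes of other lists, and the part of monocyte RNA in those differences was not tested.

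Genes of dendritic cells and MHC class II were lower for 8 of 11 and higher for none (median -2.44). H2-Ab1, a class II beta chain, stood at 4.22, 2.64, 2.30 and 1.75 CPM in Ics and at 10.8 to 81.9 CPM in the class (-4.09 ± 0.56). In the 3 nearer class libraries it was at 10.8 to 18.5 CPM, in the other 7 at 48.5 to 81.9. Markers of stem and progenitor cells were lower for 6 of 7 tested and higher for none (median -2.16), among them the receptor Flt3 at 1.05 to 1.59 CPM against 3.46 to 19.2 (-3.04 ± 0.43) and the sialomucin Cd34 at 1.08 to 1.64 CPM against 1.75 to 10.5 (-2.16 ± 0.36).

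Erythroid genes were lower for 9 of 15 and higher for none (median -1.78), with wide spread in the class. Slc4a1, the band 3 anion exchanger of red cells, stood at 37.4, 20.4, 31.7 and 43 CPM against 3.05 to 95.0 (median 45.6) and did not pass (-0.36 ± 0.70, adjusted p = 0.654). Klf1, the erythroid transcription factor, differed by -3.04 ± 0.83, and by -1.74 with offsets. In both genes the 3 class libraries nearest to Ics were the lowest of the class, with 3.05 to 7.47 CPM of Slc4a1.

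Eosinophil genes went the other way. Of 7 tested, 6 were higher in Ics, each at least 2-fold, and none lower (median 1.77, and 1.73 with offsets). Siglecf (chromosome 7, 43351341 to 43359531), the lectin that marks mouse eosinophils, stood at 8.87, 7.77, 7.89 and 8.79 CPM in Ics and at 2.14 to 4.62 CPM in the class (median 2.94), with no overlap and a difference of 1.38 ± 0.21 (adjusted p = 1.85e-05). Epx, eosinophil peroxidase, stood at 2.85, 1.84, 0.798 and 1.40 CPM against 0 to 0.324 CPM (3.85 ± 0.55). These levels are low, and the summed level of the 9 listed genes overlapped, at 69.1 to 90.6 CPM in Ics and 51 to 88.0 in the class, most of it from Ear2, an eosinophil ribonuclease named after its values were seen, which did not pass (-0.24 ± 0.16) and turned to 0.43 with offsets (adjusted p = 0.00269).

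Of 14 platelet genes 5 were higher, a share near the 34.7% of all genes, and 3 lower (median 0.11, and 0.37 with offsets). Without the 3 nearer class libraries 5 were higher and 4 lower, and the median turned to -0.0568. Their summed level was 2583 to 3925 CPM in Ics and 1482 to 2700 CPM in the class. The chemokine gene Ppbp, a small part of that sum, stood at 10.0 to 20.2 CPM in Ics against 0.321 to 6.00 (2.58 ± 0.45). Gp1bb, another gene of the list, given by level only, lay the other way, at 4.38 to 7.07 CPM against 10.1 to 20.3. Basophil and mast cell genes were higher for 1 and lower for 4 of 8 (median -1.86, and with offsets 1 and 2, median -1.21). Mcpt8, a basophil protease, stood at 6.02, 0.609, 1.04 and 0.877 CPM in Ics against 0.509 to 68.8 (-3.25 ± 1.15), and did not pass with offsets (adjusted p = 0.066) or without Ics replicate 2, 3 or 4 (adjusted p = 0.0512 to 0.0523). B cell genes were higher for 3 and lower for 2 of 11 (median 0.43, 0.21 with offsets and -0.0736 without Ics replicate 1), with the paired receptor chains in opposite directions. Cd79a stood at 7.63 to 9.41 CPM against 3.60 to 7.30 (0.58 ± 0.18, and 1.63 with offsets), and Cd79b at 1.34 to 1.87 CPM against 4.77 to 11.0 (-2.23 ± 0.22, and -1.17 with offsets). Only 5 of 16 T and NK cell genes passed the filter on low counts, with 2 higher and 2 lower (median -0.67, and 0.11 with offsets). Stromal and endothelial genes were higher for 1 and lower for 4 of 8 (median -0.15, and -0.62 with offsets), and keratinocyte genes higher for 1 and lower for 1 of 3 (median 0.057, and 0.44 with offsets). Among the lymphoid and keratinocyte lists no summed level exceeded 467 CPM in any of the 14 libraries.

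**Figure D3:**
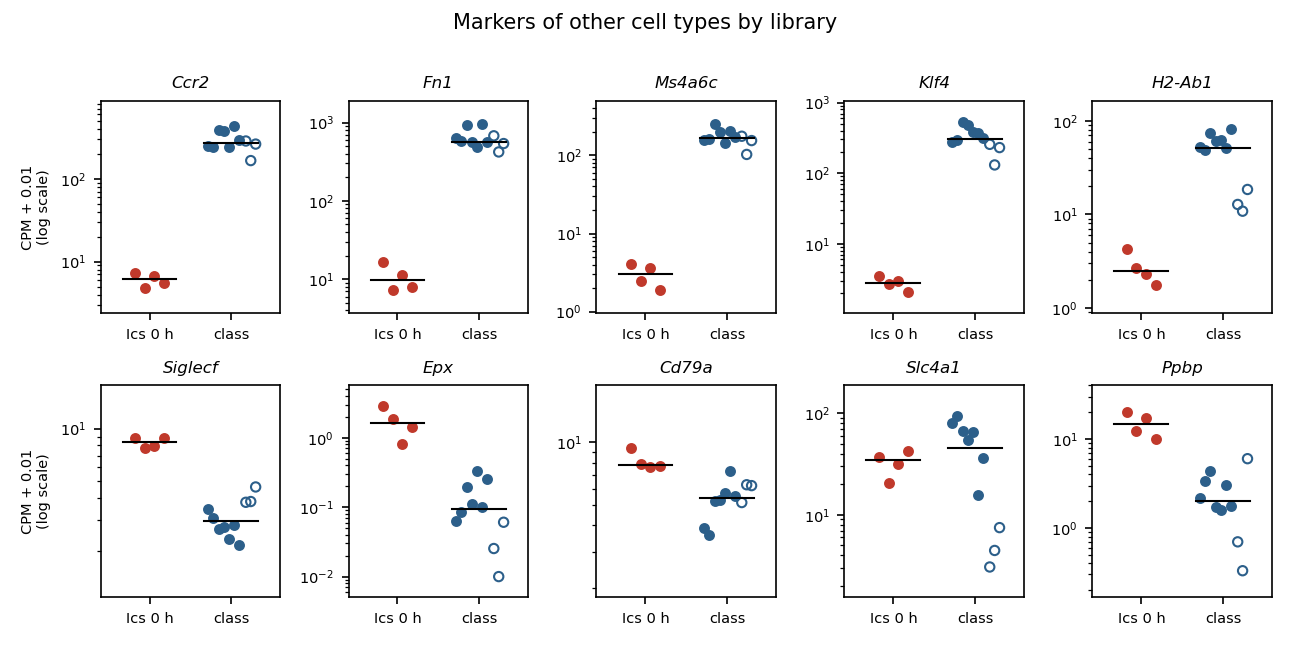
Markers of monocytes (Ccr2, Fn1, Ms4a6c and Klf4), antigen presentation (H2-Ab1), eosinophils (Siglecf and Epx), B cells (Cd79a), red cells (Slc4a1) and platelets (Ppbp) in each library (vertical axes, CPM plus 0.01 on a log scale; black lines are medians). Red points are Ics at 0 h, blue points the class and open circles its 3 libraries nearest to Ics; Ccr2 is at 4.77 to 7.23 CPM in Ics and 166 to 437 in the class.

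Baseline activation was examined through the genes that a cell transcribes within minutes of a stimulus. Of 25 immediate early genes tested, 18 were lower in Ics and 2 higher, and 17 of the lower ones differed at least 2-fold (median -1.97, and -1.25 with offsets, where 15 were lower and 1 higher). Fos (chromosome 12, 85473890 to 85477273), a subunit of the transcription factor AP-1, stood at 335, 329, 295 and 271 CPM in Ics and at 2255 to 5387 CPM in the class (median 3278), with no overlap and a log2 difference of -3.49 ± 0.27 (adjusted p = 1.77e-08). Nr4a1 (chromosome 15, 101254269 to 101274795), an orphan nuclear receptor induced by receptor signals, stood at 107, 111, 126 and 106 CPM against 546 to 1508 (median 898), a difference of -3.10 ± 0.27. Zfp36, tristetraprolin, which speeds the decay of cytokine mRNA, stood at 703, 716, 749 and 710 CPM against 3079 to 8545 (median 6101), a difference of -3.03 ± 0.24.

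Ier3, a stress response gene, differed by -2.44 ± 0.17, and by -1.25 with offsets. Fosb and Jun, AP-1 subunits named after their values were seen, differed by -4.69 ± 0.71 and -3.73 ± 0.46. Both spread widely in the class: Fosb stood at 210 to 467 CPM in the 3 libraries nearest to Ics and at 961 to 2739 CPM in the other 7, and Jun at 766 to 1627 CPM and 1431 to 4022 CPM, against 43.5 to 76.6 and 140 to 225 CPM in Ics. The 2 that were higher were Fosl2, an AP-1 subunit, at 914 to 999.7 CPM against 293 to 458 (1.31 ± 0.12), and Nr4a3, a relative of Nr4a1, at 1.17 to 3.24 CPM against 0.0599 to 1.53 (1.52 ± 0.58). They too were named after their values were seen, and Nr4a3 did not pass with offsets (1.05, adjusted p = 0.119), without Ics replicate 1 (1.44, adjusted p = 0.0622) or without Ics replicate 3 (1.16, adjusted p = 0.126).

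Promoters of 21 of the 25 genes were in the RefSeq table for GRCm38.p6, and the 250 bases before the start are shown for the 3 lower genes described in full above, because genes of this kind are known to be switched on together through sites close to the start. The first start listed for a gene was used, and for Nr4a1 it lies inside the gene span given above, so that its window precedes an internal transcript start. Capitals mark the half-site TGACG of the cyclic AMP response element on either strand (CGTCA when read on the strand printed) and the CArG box, the binding motif of serum response factor.
Fos (chr12:85473640-85473889, plus strand): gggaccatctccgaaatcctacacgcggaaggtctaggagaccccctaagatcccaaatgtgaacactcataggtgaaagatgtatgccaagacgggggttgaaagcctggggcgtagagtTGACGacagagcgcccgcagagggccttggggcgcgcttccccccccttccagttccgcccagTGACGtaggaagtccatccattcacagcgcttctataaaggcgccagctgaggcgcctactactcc
Nr4a1 (chr15:101266596-101266845, plus strand): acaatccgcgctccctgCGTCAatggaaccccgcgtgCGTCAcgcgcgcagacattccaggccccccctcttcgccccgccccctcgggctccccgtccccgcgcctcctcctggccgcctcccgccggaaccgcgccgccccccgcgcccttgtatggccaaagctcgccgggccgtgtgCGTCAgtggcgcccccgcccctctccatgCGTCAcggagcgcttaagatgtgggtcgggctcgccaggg
Zfp36 (chr7:28379229-28379478, minus strand): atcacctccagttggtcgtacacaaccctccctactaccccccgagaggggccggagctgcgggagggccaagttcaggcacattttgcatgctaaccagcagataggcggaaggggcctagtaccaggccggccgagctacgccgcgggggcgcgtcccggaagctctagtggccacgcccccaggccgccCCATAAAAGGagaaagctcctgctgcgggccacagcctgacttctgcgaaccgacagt

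The half-site occurs 2 times in the Fos window and 4 times in that of Nr4a1, and the CArG box 1 time in that of Zfp36. Over the 21 promoters, 11 held TGACG on either strand, against 17.9% of the 27025 promoters of the table. The full element TGACGTCA, which contains the half-site, was in 2 of 21 against 1.62%, and the CArG box in 1 of 21 against 1.40%. These matches describe letters in a window of 250 bases and say nothing about binding in these cells.

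Cytokine and chemokine genes followed the immediate early genes in part. Of 17 tested, 10 were lower and 5 higher (median -1.76, and -1.08 with offsets). Cxcl2 (chromosome 5, 90903871 to 90905938), a neutrophil-attracting chemokine, stood at 108, 101, 114 and 90.8 CPM in Ics and at 502 to 1018 CPM in the class (median 783), with no overlap and a difference of -2.92 ± 0.24 (adjusted p = 3.81e-08). Osm, oncostatin M, stood at 323, 243, 270 and 239 CPM against 1264 to 2371 (median 1590), a difference of -2.67 ± 0.23. Tnf stood at 19.1, 25.3, 27.9 and 28.1 CPM against 72.2 to 139 (median 85.3), a difference of -1.90 ± 0.18, and of -1.02 with offsets. Ccl2, a monocyte chemokine, stood at 0.0877 to 0.372 CPM against 9.87 to 70.4 (-7.14 ± 0.68).

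The 5 that were higher were Il1a, Il1b, Il1rn, Csf1 and Vegfa, the first 3 of them genes of the interleukin 1 family. Il1b (chromosome 2, 129364570 to 129371139), the cytokine interleukin 1 beta, stood at 1533, 1502, 1630 and 1630 CPM in Ics and at 418 to 1185 CPM in the class (median 586), with no overlap and a difference of 1.15 ± 0.28 (adjusted p = 0.00167). With offsets it was at 1.91. In the 3 nearer class libraries Il1b was at 914 to 1185 CPM and in the other 7 at 418 to 674. Csf1, macrophage colony-stimulating factor, stood at 67.1, 60.5, 86.4 and 76.4 CPM against 9.07 to 15.3 (2.50 ± 0.17). Il1a, Il1rn and Vegfa were named after their values were seen, at 1.62, 1.44 and 0.55. The level of Il1a was low in both groups, at 0.757 to 1.32 CPM in Ics against 0.101 to 0.744 in the class.

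The Ics experiment itself gives the level of these genes 3 h and 6 h after stimulation, shown without a test because all times share one experiment. Levels reached earlier than 3 h, when immediate early genes respond, were not measured. Tnf stood at 336 to 461 CPM at 3 h and 149 to 226 CPM at 6 h, above both the class and 0 h. Icam1, a ligand of leukocyte integrins and an NF-kB target, stood at 4.89, 6.66, 7.03 and 5.65 CPM at 0 h and at 5.64 to 16.2 CPM in the class, but at 286 to 420 CPM at 3 h. Its difference between 0 h and the class was -0.82 ± 0.24 (adjusted p = 0.00545), and -0.20 with offsets (adjusted p = 0.397). Nr4a3 stood at 104 to 179 CPM at 3 h. Fos and Osm did not follow that order: they were at 92.9 to 110 and 61.0 to 72.3 CPM at 3 h, below both 0 h and the class.

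**Figure D4:**
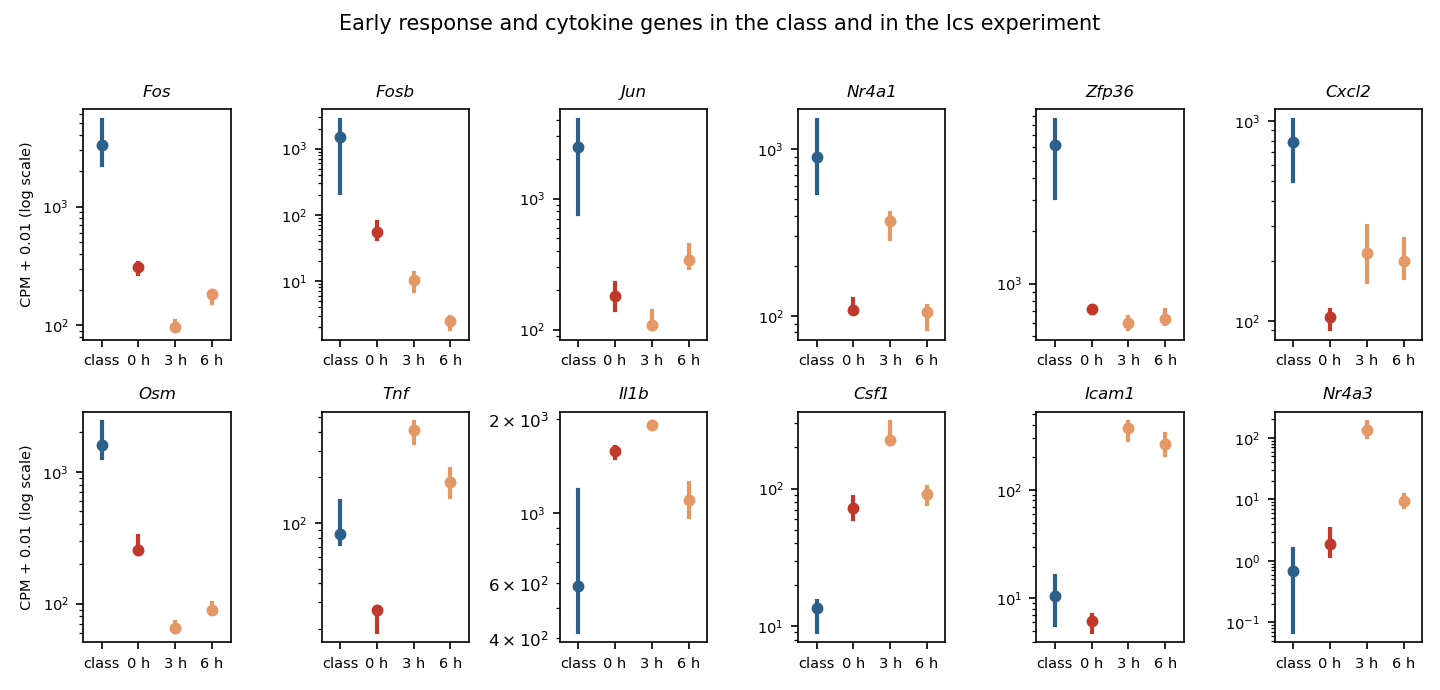
Level of 12 early response and cytokine genes (vertical axes, CPM plus 0.01 on a log scale) in the 10 class libraries (blue) and in Ics at 0 h (red), 3 h and 6 h (orange, 4 libraries each); points are medians and bars run from the lowest to the highest library. Fos is at 2255 to 5387 CPM in the class and 271 to 335 at 0 h, and Icam1 at 5.64 to 16.2 and 4.89 to 7.03, against 286 to 420 at 3 h.

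NF-kB target genes divided, with 4 higher and 8 lower of 18 (median 0.027, and with offsets 8 higher and 8 lower, median -0.23). Rel, a subunit of the factor, differed by 1.42 ± 0.15 and Tnfaip2 by 1.28 ± 0.16. Nfkbia, the inhibitor that NF-kB itself induces, stood at 192 to 259 CPM against 288 to 1204 (-1.65 ± 0.27), and Sod2, mitochondrial superoxide dismutase, differed by -0.93 ± 0.15. With offsets Rel was at 0.57, Nfkbia at -0.71 and Sod2 at -1.62. Of 28 interferon-stimulated genes 10 were higher, a share near the 34.7% of all genes, and 7 lower (median 0.20). With offsets 14 were higher and 6 lower (median 0.46). Ifih1, the RNA sensor MDA5, differed by 1.57 ± 0.22, and by 1.01 with offsets. Mx1, an antiviral GTPase, stood at 0.250 to 0.694 CPM against 6.62 to 15.8 (-4.58 ± 0.28).

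Surface genes through which neutrophils adhere and sense attractants were mostly higher in Ics. Of 13 adhesion genes 8 were higher and 3 lower (median 1.29, and 0.80 with offsets). Itgam, the alpha chain of Mac-1, stood at 3254, 3298, 3257 and 3224 CPM in Ics and at 778 to 1551 CPM in the class (median 1031), with no overlap and a difference of 1.52 ± 0.20. Its partner Itgb2 stood at 1943 to 1998 CPM against 524 to 1118 (1.29 ± 0.22), Itgax, another alpha chain, differed by 2.45 ± 0.19, and the hyaluronan receptor Cd44 by 1.33 ± 0.14 (0.80 with offsets). Chemoattractant receptors were higher for 7 of 10 and lower for none (median 0.98). Ptafr, the receptor of platelet-activating factor, stood at 213 to 271 CPM against 54.5 to 85.0 (1.86 ± 0.14), the chemokine receptor Ccr1 differed by 1.44 ± 0.30, and C5ar1, the receptor of complement C5a, by 0.84 ± 0.14.

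Fc gamma receptor genes and genes that signal from these receptors, through which immune complexes act, were higher for 7 and lower for 6 of 15 (median 0.59, and with offsets 9 and 5). Fcgr4, an activating receptor of mouse neutrophils, stood at 92.2, 90.1, 91.5 and 86.8 CPM in Ics and at 31.5 to 82.6 CPM in the class (median 40.1), a difference of 0.87 ± 0.25 (adjusted p = 0.00519) and of 1.72 with offsets. Fcgr3 did not pass, at 338 to 352 CPM against 131 to 359 (0.59 ± 0.28, adjusted p = 0.0655), but was at 1.45 with offsets (adjusted p = 3.21e-04) and at 1.03 without the 3 nearer libraries (adjusted p = 2.24e-05). It also passed without Neutrophil PBS replicate 2 (0.75) or Neutrophil IVIG replicate 1 (0.65) alone. The high-affinity receptor gene Fcgr1, which monocytes transcribe, stood at 0.0299 to 0.366 CPM against 4.81 to 23.1 (-6.21 ± 0.53). Fcgr1 was not alone below the class. By level only, Lat2 of the same list stood at 4.17 to 5.79 CPM against 16.8 to 58.3. Fcer1g, named after its values were seen, stood at 497 to 522 CPM against 730 to 1043. The kinase Syk stood at 916 to 1001 CPM against 345 to 508 (1.17 ± 0.14), and Inpp5d, the inhibitory phosphatase SHIP1, at 305 to 351 CPM against 104 to 133 (1.42 ± 0.09).

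Pattern recognition genes were higher for 8 and lower for 2 of 13 (median 0.54). Clec7a, the beta-glucan receptor dectin 1, stood at 705 to 821 CPM against 86.2 to 215 (2.41 ± 0.24), and Tlr4, the receptor of lipopolysaccharide, differed by 2.13 ± 0.24. Of 7 genes of the NADPH oxidase, which makes the respiratory burst, 3 were higher and 2 lower (median 0.29, and with offsets 5 and none, median 0.61). Cyba, the membrane subunit p22phox, was at 714 to 791 CPM against 1441 to 1835 (-1.08 ± 0.12), but at 0.13 with offsets (adjusted p = 0.364).

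Genes of oxidant defence were higher for 3 and lower for 6 of 12 (median -0.28, and 0.13 with offsets). Prdx1, a peroxiredoxin, stood at 6.12 to 9.92 CPM against 46.5 to 143 (-3.68 ± 0.24), Gpx1, glutathione peroxidase, at 701 to 761 CPM against 2157 to 3287 (-1.87 ± 0.13, and -0.59 with offsets), and Slc7a11, the cystine importer, at 107 to 124 CPM against 28.1 to 55.1 (1.42 ± 0.14, and 0.35 with offsets). Heat shock and stress genes were lower for 12 of 17 and higher for 1 (median -1.11). Hspe1, a mitochondrial chaperonin, stood at 5.98 to 9.18 CPM against 30.0 to 139 (-3.59 ± 0.41), and Atf4, a factor of the stress response, differed by -1.62 ± 0.19 and by -0.81 with offsets.

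Of 19 genes of hypoxia and glycolysis 7 were higher, a share near the 34.7% of all genes, and 4 lower (median -0.17, and with offsets 12 and 3, median 0.58). The glucose transporter Slc2a3 stood at 1154 to 1267 CPM against 320 to 753 (1.03 ± 0.19, and 0.47 with offsets), and Pfkfb3, a driver of glycolytic flux, differed by 1.22 ± 0.14. Genes of survival and death were higher for 5 and lower for 6 of 14, both near the shares of all genes (median -0.15, and -0.0175 with offsets). The pro-death gene Bax stood at 9.26 to 9.51 CPM against 22.1 to 68.6 (-2.38 ± 0.22, and -0.79 with offsets), while Bcl2l11, which codes the pro-death protein Bim, differed by 1.16 ± 0.16.

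The general machinery was lower in Ics. All 72 ribosomal protein genes tested were lower, 71 of them at least 2-fold (median -2.43). Rpl19 stood at 115, 99.1, 99.2 and 102 CPM in Ics and at 378 to 759 CPM in the class (median 557), a difference of -2.38 ± 0.15. These transcripts are short, with a median of 1108 bases, and with offsets 71 were lower, with a median of -1.61 and Rpl19 at -1.31. Of 13 genes coded in the mitochondrion 10 were lower and 1 higher (median -1.77, and with offsets 7 and none, median -1.34); mt-Co2, a subunit of cytochrome oxidase, stood at 474, 358, 528 and 344 CPM against 586 to 4513 (-2.32 ± 0.48).

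**Figure D5:**
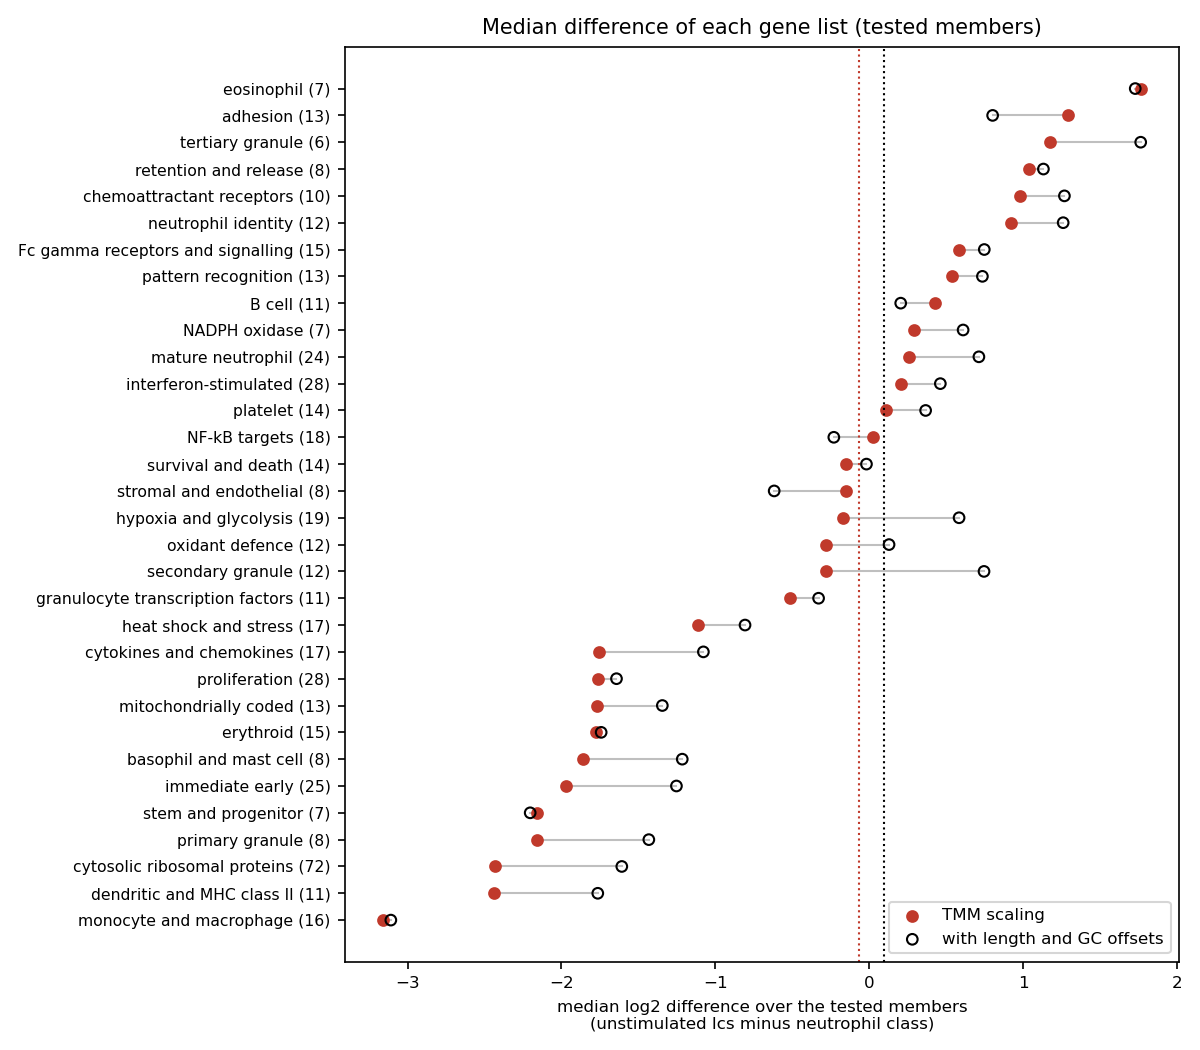
Median log2 difference (horizontal axis, unstimulated Ics minus class) over the tested members of each gene list with at least 6 of them (number in parentheses). Red points are from TMM scaling and open circles from the fit with length and GC offsets; dotted lines are the medians over all genes, at -0.06 and 0.10. The secondary granule list moves from -0.28 to 0.75, and the monocyte and macrophage list stays at -3.16 and -3.11.

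Outside the lists, the naming rule took the genes with the largest differences and no overlap. Among those higher in Ics, Lnpep (chromosome 17, 17521410 to 17625050), an aminopeptidase of the insulin-responsive vesicles, stood at 290 to 302 CPM against 10.9 to 27.4 (4.05 ± 0.21, and 2.86 with offsets). Vasn, a membrane protein that binds transforming growth factor beta, stood at 74.0 to 103 CPM against 0.254 to 13.1 (4.61 ± 0.63), and Orm3, an acute phase glycoprotein with near-identical relatives, at 13.9 to 14.5 CPM against 0.0786 to 0.928 (4.88 ± 0.37). Among those lower, Plxnb2 (chromosome 15, 89155549 to 89180788), a semaphorin receptor, stood at 0.350 to 1.37 CPM against 56.4 to 262 (-7.56 ± 0.55), and S100a4, a calcium-binding protein, at 1.09 to 2.95 CPM against 133 to 420 (-7.18 ± 0.37). Cyp27a1, a sterol hydroxylase, differed by -7.27 ± 0.43 and Crip1, a LIM domain protein, by -6.93 ± 0.33. Exosc6, a subunit of the RNA exosome, was listed at 0 in all 4 Ics libraries and stood at 4.91 to 18.5 CPM in the class.

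The choice of class libraries touched the results as follows. With the 8 libraries labelled Neutrophil alone, 4945 genes were higher and 5830 lower. With all 10 libraries labelled Neutrophil whatever their markers, 3868 were higher and 4535 lower; the 2 libraries thereby added carried 96.3% and 98.3% of their counts in haemoglobin genes and 0.0182 and 0.0392 CPM of Ly6g. Of 104 named genes called above, 30 no longer passed in that comparison, among them Mpo, Ltf, Camp, Mmp8, Mki67, Top2a, Tnf and C5ar1.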

How the data were processed

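The authors deposited 1 table of estimated counts, which its name calls TPM scaled by length, for 46 libraries of oligo(dT)-enriched mRNA. Per the submitters' processing notes, kallisto 0.46.1 and GRCm38 were used. How transcripts were summed to the 46264 symbols, and with which scaling tool or filter, is not given in the sources used here. Values were rounded to whole numbers. GENCODE vM21 gave chromosomes for 43882 symbols and RefSeq for 656 more. The 1726 symbols without one and the 3924 linked to X or Y were left out, and 40614 were kept.

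Levels are CPM, each count divided by its column total. Differences were tested in R 4.3.3 with edgeR 4.0.16 (quasi-likelihood F test, TMM scaling, expression filter with a minimum count of 10). P-values were adjusted by Benjamini-Hochberg over all genes tested and called under 0.05, and every adjusted p printed is edgeR's. The standard error is the log2 difference divided by the square root of F.

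The members and the 34 gene lists were chosen with earlier results of these data known, so no list has a test of its own. The rule for named genes took the 12 largest differences in each direction without overlap and with 5 CPM or more on the higher side. It added the 4 smallest p-values of each list and a set of marker genes, and exceptions are stated where they occur. Some genes of the rule are not reported here.

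Alternatives were other scalings, DESeq2 1.42.0, limma 3.58.1 (voom with quality weights), other filters, a test against a 2-fold limit, other choices of class libraries, a joint fit with 3 h and 6 h, and leaving out each library in turn. Leaving out the 3 class libraries nearest to Ics, and offsets for transcript length and GC content (longest GENCODE transcript of a symbol), were alternatives chosen after seeing the data. The edgeR procedure was tested on simulated data. Where the simulated counts carried a length trend, the fit without offsets called many unchanged genes and the fit with offsets almost none. That trend was made from the same lengths that the offsets use, so its removal was built in. It cannot show whether the offsets are right for the real data. Whether counting used the strand is not stated, so overlapping and antisense genes are uncertain.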

Additional observations from a re-analysis of the deposited data

Results flagged for a closer look

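A single library stood far from the others of its group, by Dixon's criterion, in 9 of 222 sets of values (111 genes in each of both groups); chance gives about 1 in 20. In 5 of the 9 the library was Ics replicate 1. It had 31.4 CPM of Birc5 against 22.6 to 23.4 in the other Ics libraries, 9.41 CPM of Cd79a against 7.63 to 7.91, 6.02 CPM of Mcpt8 against 0.609 to 1.04, 115 CPM of Rpl19 against 99.1 to 102, and 107 CPM of Slc7a11 against 122 to 124.

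Within the class, Neutrophil PBS replicate 3 had 859.8 CPM of Cxcr4 against 452 to 635 in the other 9 libraries, and 104 CPM of Inpp5d against 118 to 133. Neutrophil PBS replicate 2 had 478 CPM of G0s2 against 280 to 369. Neutrophil IVIG replicate 1 had 13.1 CPM of Vasn against 0.254 to 4.74. None of these libraries reached the range of the other group in these genes, with the exception of Mcpt8, where the groups overlap.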

How the results depend on the processing

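The 4 counts of genes stayed within 1.5 times of their main value under every alternative run, with the exception of the test against a 2-fold limit, which called 2057 genes higher and 3050 lower. Leaving out each library in turn gave 4717 to 5476 genes higher, 5690 to 6031 lower, 3131 to 3536 higher at 2-fold or more and 3999 to 4296 lower. DESeq2 called 6418 higher and 6015 lower. The median shift of the genes shared with the reported fit was over 0.1 under the offsets (0.17) and the stricter minimum count of 50 (0.11).

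Of 109 named genes recomputed, 75 kept direction and call under every alternative other than the offsets and the 10 libraries labelled Neutrophil. The test against a 2-fold limit ended 30 calls. Gp1bb, Lat2 and Fcer1g, given by level only, were not among the genes recomputed. Fcgr3 passed with other scalings (0.62 to 0.65). With offsets the direction turned for Ly6g (0.37), Ngp (0.78), Cebpe (0.85), Cyba (0.13), Slpi (0.47), Msrb1 (0.71) and Ear2 (0.43). Their transcripts are short, at 719 to 1241 bases. The offset median over all genes was 0.47 up to 984 bases and 0.23 from 985 to 1590 bases. With the 10 libraries labelled Neutrophil it turned for Cd79a (-3.21), Ppbp (-4.75) and Ngp (0.057), and without the 3 nearer libraries for Ngp (0.0343). With offsets, list medians turned for the secondary granule (0.75), oxidant defence (0.13), hypoxia and glycolysis (0.58) and NF-kB targets (-0.23). The B cell median turned to -2.68 with the libraries labelled Neutrophil, -0.25 at a minimum count of 50 and -0.0736 without Ics replicate 1. That of T and NK cells, with 5 genes, turned to 1.11 with IVIG libraries alone, 0.53 with the 8 libraries labelled Neutrophil, 0.61 within title series S3 and 0.11 with offsets. The platelet median turned to -0.0568 without the 3 nearer libraries and to -4.72 with the 10 libraries labelled Neutrophil. The monocyte and macrophage median moved from -3.16 to between -5.65 and -5.37 in 5 alternatives. The cause of these changes was not tested. No paired analysis was possible because the numbers m1 to m4 of the Ics libraries and the series and animal numbers of the class come from different experiments and pair no libraries.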
